A study of Saccharomyces cerevisiae and Saccharomyces paradoxus and Saccharomyces cerevisiae x Saccharomyces paradoxus with 12 samples.

Results

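Translation efficiency was measured across the genes of Saccharomyces paradoxus, the closest wild relative of baker's yeast, by setting ribosome-protected fragments against messenger RNA. The members were the 4 libraries of the S. paradoxus parent, 2 of Ribo-seq and 2 of RNA-seq, out of 12 in the series, and every gene with counts in them: 5226 genes, of which 5145 passed the filter on low counts and 81 did not. The S. paradoxus cells were strain GSY82, labelled diploid, and the S. cerevisiae parent used for comparison was strain GSY83, also labelled diploid. Both species were grown in YEP+D, a rich glucose medium, and all cells, in both assays, were treated with cycloheximide, which blocks translation elongation, before polysome extracts were made. The series also holds an F1 hybrid of the 2 species. Its S. paradoxus allele is used here for 1 description, and the columns of both its alleles enter an alternative fit.

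Ribo-seq sequences the short stretches of mRNA that translating ribosomes shield from nuclease, so that footprint counts follow how many ribosomes sit on a gene's messages. The ratio of footprints to mRNA for the same gene is its translation efficiency, which is read as the density of ribosomes along its messages. In yeast it is known to be set mainly by how often ribosomes start, through the leader of the mRNA, upstream open reading frames and the structure and length of the message. Efficiency is given below as a log2 value, Ribo-seq minus RNA-seq, from edgeR's quasi-likelihood fit. It is relative: 0 is the common centre of the libraries, not 1 ribosome per message. Levels are CPM, the counts scaled to a common library size, after edgeR's TMM scaling, and levels of different genes are compared only per kilobase of S. paradoxus coding length (CPM per kb).

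The 4 S. paradoxus columns held 8904431 and 6116133 counts in Ribo-seq and 7096639 and 7190496 in RNA-seq. The replicates correlated across genes at Pearson's r = 0.992 in Ribo-seq and 0.979 in RNA-seq on log2 CPM. No S. paradoxus column held a 0, and 136 and 149 genes in Ribo-seq and 62 and 50 genes in RNA-seq stood at a count of 1, so a count of 1 may be a floor. The S. paradoxus and S. cerevisiae columns of the same assay and number had nearly equal totals (8904431 and 8910405 for the first Ribo-seq pair), and the sources used here do not say how that came about. Of 15 genes that diploid cells are known to repress, 13 were in the table, and all 13 lay below the median gene in RNA-seq, with a median of 2.61 CPM against 67.0 CPM for the median gene. The labels do not tell whether the replicates were grown separately. The p-values measure only the spread between replicate libraries, pooled over the parental libraries of both species, and this spread may be technical.

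Many genes departed measurably from the common centre. Efficiency was called higher in 1330 genes (25.9% of those tested) and lower in 1516 genes (29.5%) by edgeR at a Benjamini-Hochberg adjusted p under 0.05. Together these were 55.3% of the genes. The spread in that fit was shared with the S. cerevisiae libraries. With the S. paradoxus libraries fitted alone, 2412 of 5047 genes were called, 1099 higher and 1313 lower. Changes of at least 2-fold were fewer and leaned downward, with 313 called genes higher (6.08%) and 691 lower (13.4%). Much of the lower tail lay in genes with few counts. The 5th and 95th percentiles of log2 efficiency were -1.93 and 1.07 over all genes tested. They were -1.21 and 1.09 among the 4518 genes with at least 50 counts in each S. paradoxus column, a filter that itself removes genes with few footprints. Both Ribo-seq values lay above both RNA-seq values in 1847 genes (35.9%) and below both in 1994 (38.8%). The split between higher and lower rests on the scaling: with totals alone the median gene moved to a log2 efficiency of -0.50, against -0.03 with TMM, and 426 genes were then higher and 2670 lower. Directions below are therefore relative to the median gene.

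Efficiency added to the range that mRNA levels already spanned. Among the 4518 genes with at least 50 counts in each S. paradoxus column, footprints per kb covered a 113-fold range between the 5th and 95th percentiles, mRNA per kb a 50.3-fold range, and efficiency a 4.93-fold range. Footprint and mRNA levels per kb correlated at r = 0.943 across these genes, which share libraries and are not independent replicates. Ribosomes were concentrated on fewer genes than messages were. In the Ribo-seq libraries, 205 and 227 genes held 50% of the counts, and in the RNA-seq libraries 292 and 371 genes did. The 100 genes with most counts took 36.8% and 34.6% of footprints, against 32.0% and 28.0% of mRNA counts. In S. cerevisiae the same measure gave 237 and 213 genes in Ribo-seq and 457 and 440 in RNA-seq.

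Efficiency was higher among abundant messages. Genes were placed in 10 classes of equal size by mRNA per kb in one RNA-seq library, and efficiency was taken from the other pair of libraries, so that no library entered both. Median log2 efficiency was -0.65 in the lowest class, between -0.32 and -0.15 in the second to the sixth, 0.04 in the seventh and 0.57 in the highest. The lowest class stood at -0.09 when only genes with at least 50 counts in every column were kept, a filter that by its construction removes genes with few footprints. The scatter of footprints against mRNA shows the narrow band most genes fall in and the few that leave it.

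**Figure D1:**
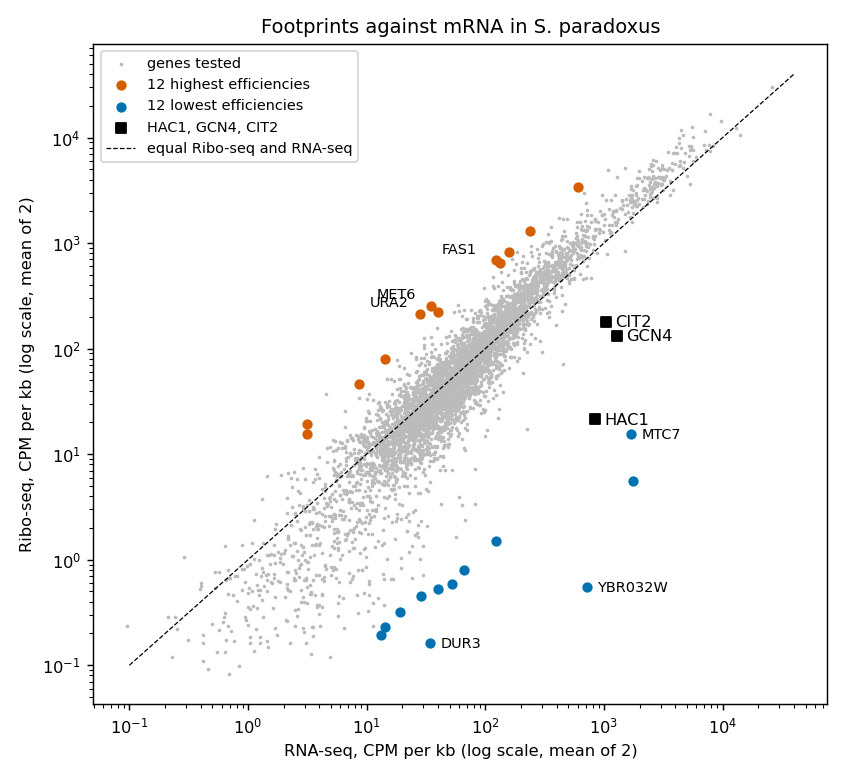
Each grey point is 1 of the 5145 genes tested, with mean Ribo-seq CPM per kb on the vertical axis and mean RNA-seq CPM per kb on the horizontal axis, both on log scales and each the mean of 2 libraries. The 12 genes with the highest efficiency lie above the dashed line of equality at widely different mRNA levels, and HAC1, GCN4 and CIT2 lie well below it among abundant messages.

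The 12 genes of highest efficiency were URA2, MET6, PUF2, FAS1, PUF3, ALD6, DHH1, SSA1, ECM29, PTR2, COS111 and SRO9. They were the highest among called genes with at least 50 counts in each RNA-seq library and no overlap between the assays. URA2, which encodes the enzyme of the first steps of pyrimidine synthesis, had 1705 and 1138 CPM in Ribo-seq and 238 and 137 CPM in RNA-seq, a 7.58-fold excess of footprints (log2 2.92 ± 0.33 SE, adjusted p = 3.49e-05, edgeR). MET6, methionine synthase, had 509 and 654 CPM in Ribo-seq and 84.4 and 74.6 CPM in RNA-seq (log2 2.87 ± 0.18, adjusted p = 9.15e-07, edgeR). In both genes each Ribo-seq value was several times each RNA-seq value. FAS1, the beta subunit of fatty acid synthase, had 4989 and 3595 CPM in Ribo-seq and 943 and 563 CPM in RNA-seq. ALD6, the cytosolic aldehyde dehydrogenase that makes acetate, had 5760 and 4522 CPM in Ribo-seq and 878 and 948 CPM in RNA-seq. Their log2 efficiencies were 2.51 and 2.49.

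4 of the 12 highest encode proteins that bind mRNA. PUF2 and PUF3 are Pumilio-family proteins that bind the tails of target messages, DHH1 is a DEAD-box helicase of mRNA decay and translational repression, and SRO9 is a La-motif RNA-binding protein. PUF2 had 53.6 and 70.7 CPM in Ribo-seq and 12.7 and 7.49 CPM in RNA-seq (log2 2.63), and PUF3 had 225 and 197 CPM in Ribo-seq and 46.3 and 28.2 CPM in RNA-seq (log2 2.51). DHH1 had 347 and 325 CPM in Ribo-seq and 63.6 and 58.1 CPM in RNA-seq (log2 2.47 ± 0.14, adjusted p = 5.22e-07, edgeR). SRO9 had 630 and 518 CPM in Ribo-seq and 149 and 86.4 CPM in RNA-seq (log2 2.29). The absence of overlap between the assays was a condition for naming these genes, and the grouping was noticed after the values were seen. The share of mRNA-binding proteins among all genes was not counted, so whether 4 of 12 is unusual is not known. The remaining 4 were the cytosolic Hsp70 SSA1 (log2 2.44), the proteasome adaptor ECM29 (2.43), the peptide transporter PTR2 (2.38) and COS111 (2.30).

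The lowest efficiencies were of genes with mRNA and almost no footprints, and 11 of the 12 lowest had no more than 5 counts in either Ribo-seq library. Ratios are given here as mRNA over footprints, pooled over replicates, with a 95% interval that covers counting error only. DUR3, a urea and polyamine transporter, had 1 and 3 counts in Ribo-seq and 489 and 718 in RNA-seq, 228 times as much mRNA as footprints (interval 89.0 to 840). DAL1, allantoinase, had 1 and 2 counts in Ribo-seq and 146 and 147 in RNA-seq (ratio 73.9, interval 25.1 to 361). GIT1, a glycerophosphodiester transporter, had 1 and 3 in Ribo-seq and 158 and 196 in RNA-seq (ratio 67.0, interval 25.9 to 247). DUR3 and DAL1 belong to the use of poor nitrogen sources and GIT1 to phosphate supply, which are known to be little used in rich medium. CST9, a protein of the meiotic synapsis machinery, had 3 and 4 counts in Ribo-seq and 228 and 388 in RNA-seq (ratio 66.6, interval 32.1 to 166). The other 8 were YBR032W, YBR191W-A, MTC7, YIR016W, YHR032W-A, MLO1, CNM1 and ULI1.

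3 of these genes start just after a gene on the same strand with more mRNA per kb in the S. paradoxus coordinate table. MTC7 begins 13 bases after HYP2, the translation factor eIF5A, YBR191W-A begins 8 bases after RPL21A, and YBR032W begins 70 bases after RPL4A. MTC7 had 36 and 46 counts in Ribo-seq and 6779 and 5151 in RNA-seq, a ratio of 110 (interval 88.7 to 139). Its mRNA stood at 1675 CPM per kb beside 4601 for HYP2, YBR032W stood at 716 beside 3073 for RPL4A, and YBR191W-A at 1759 beside 1979 for RPL21A, little more than its own level. Among the 4797 genes with at least 50 counts in both RNA-seq libraries, 8 (0.167%) started within 100 bases after a same-strand gene with more mRNA per kb, and 5 of those 8 were among the 154 genes at a log2 efficiency of -2 or lower (3.25%). How much of the RNA-seq count at such genes comes from the neighbour's transcript was not tested.

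**Figure D2:**
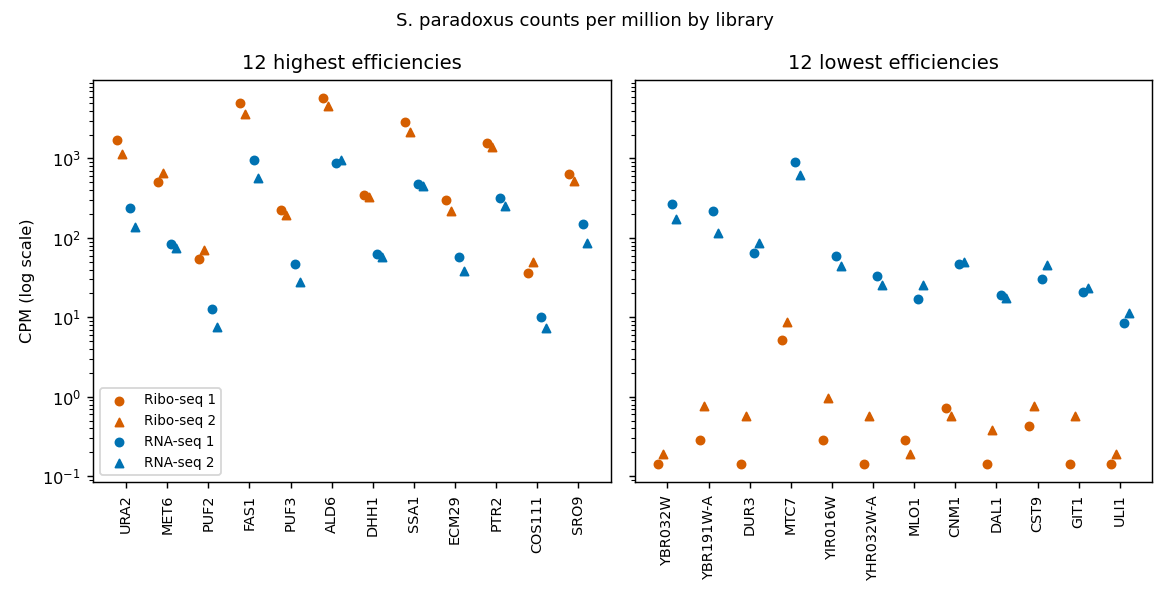
CPM on a log scale in each of the 4 S. paradoxus libraries, Ribo-seq in orange to the left of RNA-seq in blue, circles for replicate 1 and triangles for replicate 2. In the 12 genes of highest efficiency all Ribo-seq points lie above all RNA-seq points, a separation that the rule for naming both sets required. In the 12 of lowest efficiency the Ribo-seq points lie below, at 5 counts or fewer in all but MTC7.

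In all, 234 genes had a log2 efficiency of -2 or lower and 23 had 2 or higher. Of the 234, 154 had at least 50 counts in both RNA-seq libraries, and 95 had a count of 3 or lower in at least 1 Ribo-seq library. Most of the low group was also low in S. cerevisiae, where 140 of the 154 were at -1 or lower. Of the 4797 genes with the same minimum of RNA-seq counts 753 were, and of all 5145 genes 942. Of the 23 at 2 or higher, 22 were at 1 or higher in S. cerevisiae, where 582 of all genes were. Median coding length was 1956 bases in the high group and 1504 in the low group with enough mRNA. It was 1254 over all genes and 1284 over all those with enough mRNA.

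Among genes known for translational control more were lower than higher. Of 25 tested, out of 27 listed for upstream open reading frames or similar control, 14 had lower (56.0%, beside 29.5% of all genes) and 3 higher efficiency (12%, beside 25.9%). Their median was -0.46, beside -0.03 over all genes, and the difference of the list from other genes was not tested. HAC1, the transcription factor of the unfolded protein response, is known in S. cerevisiae for an unspliced mRNA whose intron blocks ribosomes. It had 20.4 and 19.3 CPM in Ribo-seq and 1057 and 498 CPM in RNA-seq (log2 -5.29 ± 0.32, adjusted p = 7.56e-07, edgeR). GCN4, the activator of amino acid synthesis, is known in S. cerevisiae for short upstream reading frames that hold ribosomes back when amino acids are plentiful. It had 108 and 116 CPM in Ribo-seq and 1158 and 1036 CPM in RNA-seq (log2 -3.30 ± 0.17, adjusted p = 2.70e-07, edgeR). In both genes all Ribo-seq values lay far below all RNA-seq values. In the R64 annotation of S. cerevisiae, the ortholog of HAC1 lies on chromosome VI, 75179 to 76147, on the plus strand, and that of GCN4 on chromosome V, 138918 to 139763, on the minus strand.

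The rest of that group ranged from -1.49 to 0.61. ARV1 (-1.49), a lipid transport protein, PPR1 (-1.27), the activator of pyrimidine genes, WSC3 (-1.26), a cell wall stress sensor, and the mitochondrial translational activators PET111 (-1.22) and CBS1 (-1.04) were lower. The TORC2 subunit AVO1 (-0.87), the stress activator CAD1 (-0.79), the transporter HOL1 (-0.72) and the cell integrity kinase MKK1 (-0.63) were lower by less, as were FOL1 of folate synthesis (-0.61) and the deaminase DCD1 (-0.44). YAP1, the oxidative stress activator, was higher (0.54, adjusted p = 0.00475, edgeR), as were HAP4, the activator of respiration genes (0.39), and SCH9, a kinase of the TOR pathway (0.37). With totals alone HAP4 stood at -0.07 and SCH9 at -0.10, above the median gene of -0.50 in that scaling. 4 of these calls were lost without the first S. paradoxus Ribo-seq library, where the adjusted p by edgeR was 0.206 for DCD1, 0.130 for SCH9, 0.106 for HAP4 and 0.0502 for YAP1. CPA1, whose leader encodes an arginine-sensing peptide, had 143 and 165 CPM in Ribo-seq and 171 and 159 CPM in RNA-seq (log2 -0.10, adjusted p = 0.600, edgeR). GIC1, SCO1, RPC11, NAM7, CLN3, POM34 and INO2 did not pass the test either, with values from -0.39 to 0.61.

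The genes that make energy stood highest among the 26 gene groups described. In oxidative phosphorylation, 33 of 35 tested genes had higher and none lower efficiency, beside 25.9% of all genes higher, and the median was 1.17. COX7, a small subunit of cytochrome oxidase, had 248 and 372 CPM in Ribo-seq and 96.1 and 69.5 CPM in RNA-seq (log2 1.90). The lowest member was the ATP synthase stator subunit ATP4 (0.10), which did not pass. In glycolysis and fermentation 20 of 22 were higher and none lower, with a median of 0.97. These genes took 10.1% and 9.30% of footprints and 7.28% and 6.94% of mRNA counts, so the shares of the assays did not overlap. HXK2, the main glucose kinase on glucose, had 1920 and 1637 CPM in Ribo-seq and 497 and 482 CPM in RNA-seq (log2 1.86 ± 0.16, adjusted p = 4.78e-06, edgeR), and PDC1, pyruvate decarboxylase and the gene with most counts in all 4 libraries, stood at 1.08.

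Within the citric acid and glyoxylate cycles the members parted. 10 of 18 were higher (55.6%, beside 25.9% of all genes) and 4 lower (22.2%, below the 29.5% of all genes). Those higher included the cycle's succinate and ketoglutarate dehydrogenase genes SDH2 (1.63) and KGD1 (1.37) and the cytosolic malate dehydrogenase MDH2 (1.84). The 4 lower were CIT2 (-2.53), MLS1 (-2.18), ICL1 (-2.15) and CIT3 (-1.98): peroxisomal citrate synthase, malate synthase, isocitrate lyase and a minor mitochondrial citrate synthase. CIT2 had 229 and 264 CPM in Ribo-seq and 1602 and 1253 CPM in RNA-seq (SE 0.20, adjusted p = 3.18e-06, edgeR). The other 3 were scarce, with 2 to 15 counts in each Ribo-seq library.

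Chaperones spread widely. Of the list, 24 of 33 were higher (72.7%, beside 25.9% of all genes) and 3 lower (9.09%, beside 29.5%), with a median of 0.75. The list took 4.77% and 4.02% of footprints and 2.55% and 2.54% of mRNA counts. The higher ones included the constitutive Hsp70 genes SSA1 and SSA2 and the mitochondrial SSC1 (2.05) and HSP60 (1.98). SSA2 had 10819 and 8188 CPM in Ribo-seq and 2258 and 1891 CPM in RNA-seq (log2 2.20). The lower ones were the stress-induced SSA3 (-3.91), HSP26 (-2.97) and SSA4 (-1.88). SSA3 had 1.45 and 2.51 CPM in Ribo-seq and 29.8 and 28.0 CPM in RNA-seq, without overlap.

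Most parts of the translation machinery lay above the median gene. Mitochondrial ribosomal proteins had 53 of 68 genes higher and none lower (median 0.58), and tRNA synthetases 18 of 20 and none lower (0.57). Elongation and termination factors had 10 of 12 higher and 1 lower (0.74), and initiation factors 13 of 27 and none lower (0.39). Of all genes, 25.9% were higher and 29.5% lower. YEF3, elongation factor 3, had 15443 and 10933 CPM in Ribo-seq and 4397 and 3610 CPM in RNA-seq (log2 1.72 ± 0.21, adjusted p = 5.60e-05, edgeR). Its paralog HEF3, little expressed on glucose, had 2.60 and 2.70 CPM in Ribo-seq and 7.39 and 9.51 CPM in RNA-seq (log2 -1.67), and reads shared by the pair could be split by the counting. DED1, the helicase that opens leaders for scanning ribosomes, was the highest initiation factor (log2 2.06), with 1401 and 1145 CPM in Ribo-seq and 314 and 297 CPM in RNA-seq. Ribosome biogenesis factors were more mixed, with 18 of 55 higher (32.7%, near the share of all genes) and 8 lower (14.5%), and a median of 0.25.

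Cytosolic ribosomal proteins lay above the median gene by an amount that differed between the replicates. Of 117 genes, 51 were higher (43.6%, beside 25.9% of all genes) and 3 lower (2.56%, beside 29.5%), with a median of 0.41. Many come in near-identical pairs whose reads the counting may have split. Their share of counts was 18.1% and 19.3% in Ribo-seq and 21.7% and 17.2% in RNA-seq, so the assays overlapped. Relative to the median gene, the list's median was 0.25 in the libraries numbered 1 and 0.72 in those numbered 2. RPL29, the highest of the list, had 1922 and 2283 CPM in Ribo-seq and 1011 and 598 CPM in RNA-seq (log2 1.39), while RPS22B stood at -0.83 with overlapping values, a call lost without the first S. paradoxus Ribo-seq library (adjusted p = 0.251, edgeR).

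In the proteasome and ergosterol synthesis most genes were higher. The proteasome had 27 of 31 higher and none lower (median 0.57), and ergosterol synthesis 15 of 24 and none lower (0.54). In the other housekeeping groups 50% of the genes or fewer were. RNA polymerases had 12 of 28 and none lower (0.33). Amino acid synthesis had 29 of 58 higher and 7 lower (0.45), from MET6 at 2.87 to the arginine enzyme ARG8 at -1.04, and the branched-chain enzyme ILV5 stood at 1.79. Cell wall genes had 14 of 29 higher and 3 lower (0.28). The share called higher was near or below the 25.9% of all genes in 3 of these groups. For the vacuolar ATPase 4 of 13 were higher and none lower (0.29), for the nuclear pore 8 of 32 higher and 5 lower (0.17), and for histones 2 of 9 higher and none lower (0.29). With the trend on coding length removed the histones turned to a median of -0.089 relative to the median gene, with 2 higher and 4 lower.

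Regulatory and conditional genes lay on the other side. Of all genes, 25.9% were higher and 29.5% lower. Sequence-specific transcription factors had 11 of 84 tested genes higher and 35 lower (median -0.35). DNA repair had 4 of 59 higher and 26 lower (-0.42), kinetochore 3 of 38 and 14 (-0.26), and autophagy 4 of 32 and 13 (-0.29). Cyclins and cell cycle regulators had 5 of 27 higher and 9 lower (33.3%, near that of all genes), and their median of -0.22 was uneven, at -0.03 in the libraries numbered 1 and -0.34 in those numbered 2 relative to the median gene. MSN2, a general stress activator, was the highest transcription factor (0.98), with 113 and 119 CPM in Ribo-seq and 54.8 and 62.6 CPM in RNA-seq. CLB2, the main mitotic cyclin, was the highest cyclin (0.90). Of 18 hexose transporters and sensors listed, 9 were in the table and 7 were tested. Of these 7, 1 was higher and 2 lower (28.6%, near the 29.5% of all genes). The high-affinity transporter HXT2 had 1417 and 1231 CPM in Ribo-seq and 340 and 264 CPM in RNA-seq (log2 2.13). The glucose sensor RGT2 had 17.9 and 23.7 CPM in Ribo-seq and 78.6 and 100 CPM in RNA-seq (log2 -2.11). The other 5 of that group were between these, and 1 further member was called lower.

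Meiosis and mating genes were lowest. Of 44 meiosis and sporulation genes tested, 31 were lower (70.5%, beside 29.5% of all genes) and 1 higher (median -1.84). Of 17 haploid-specific and mating genes, 11 were lower (64.7%) and none higher (-1.61). These are genes that growing diploids hardly express: 29 of the 44 and 10 of the 17 had fewer than 50 counts in an RNA-seq library, so the values rest on few counts. Scarce genes could also pass the filter on low counts through RNA-seq alone. By its construction the filter thus lets in genes with few footprints, and the low medians of these lists rest in part on it. With at least 50 counts required in each of the 8 parental columns only 2 meiosis genes and no mating gene were left, and the median of the meiosis list turned to 0.68 relative to the median gene. SPO12, a regulator of mitotic exit as well as meiosis, was the 1 higher member (1.05). SST2, the regulator that quiets pheromone signalling, had 3.61 and 5.20 CPM in Ribo-seq and 60.6 and 74.6 CPM in RNA-seq (log2 -3.96 ± 0.23, adjusted p = 4.85e-07, edgeR).

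**Figure D3:**
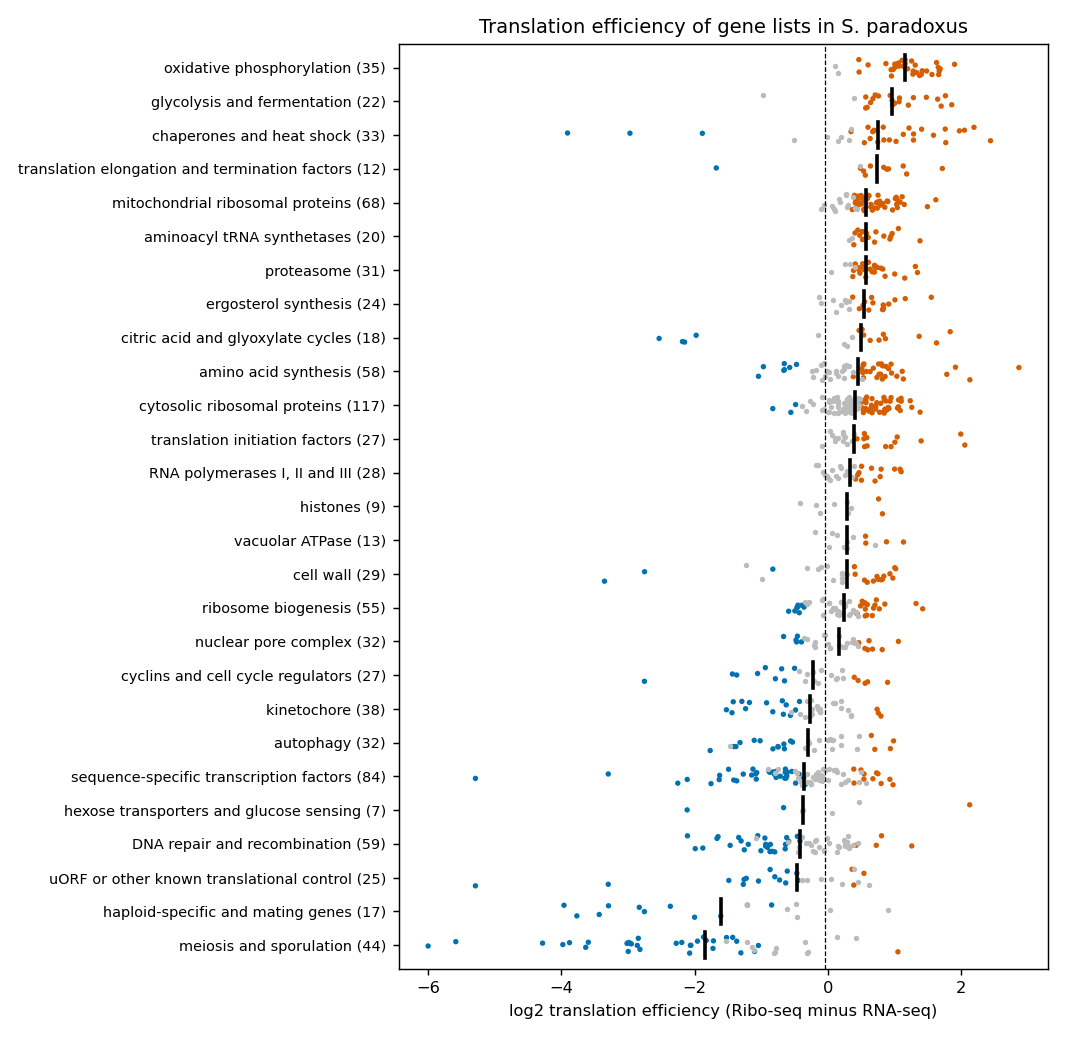
Log2 translation efficiency of each tested gene in 26 gene groups and in the group with known translational control, ordered by median (black bars), with the number tested in brackets; orange and blue points are genes called higher and lower, grey points were not called, and the vertical dashed line is the median of all genes. Oxidative phosphorylation and glycolysis are at the top, and mating and meiosis genes at the bottom.

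Efficiency changed with coding length, first downward and then upward. The median was 0.45 in 146 genes under 300 bases, 0.40 from there to under 600, 0.08 to under 900, -0.12 to under 1200, -0.22 to under 1500 and -0.31 to under 2100. It was -0.20 from 2100 to under 3000 bases and 0.17 in 423 genes of 3000 bases or more. Spearman's rho between efficiency and length across genes was -0.29 below 1500 bases (3126 genes) and 0.20 above (2019 genes). In the shortest genes 43.8% were called higher and 9.59% lower, and in the class from 1500 to under 2100 bases 17.7% and 41.9%. Leaving out the ribosomal proteins, the 3 shortest classes stood at 0.46, 0.37 and 0.07.

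The size of the short-gene excess differed between the replicates. Genes under 300 bases had a median of 0.08 in the libraries numbered 1 and 0.85 in those numbered 2. The RNA-seq libraries differed most, with medians of 161 and 108 CPM per kb in that class, against 182 and 231 CPM per kb in Ribo-seq. In genes of 3000 bases or more the pairs gave 0.21 and 0.19. Whether fragment selection or RNA quality takes part in this was not tested.

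**Figure D4:**
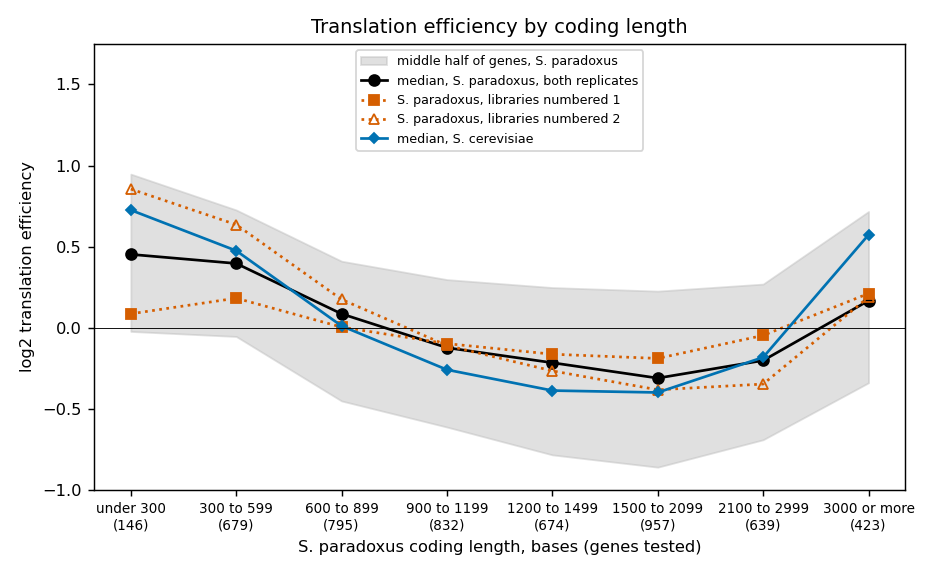
Median log2 translation efficiency by class of S. paradoxus coding length (number of genes tested in brackets), with the interquartile band of S. paradoxus in grey, each S. paradoxus library pair in orange and S. cerevisiae in blue. The S. paradoxus curve falls to -0.31 in the class from 1500 to under 2100 bases and ends at 0.17, below the 0.57 of S. cerevisiae.

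In most complexes described, measured footprint levels of the subunits were more alike than their mRNA levels. The 27 complexes were listed on the assumption that their subunits occur in near-equal numbers, which was not checked for each. The SD over subunits of log2 CPM per kb was smaller in Ribo-seq than in RNA-seq in 23. The median SD was 0.34 in Ribo-seq and 0.49 in RNA-seq. The count was 24 with the libraries numbered 1 and 19 with those numbered 2, 18 of the 20 complexes with at least 5 subunits, and 14 of 27 where every Ribo-seq library was required to be below every RNA-seq library. The RNA-seq libraries also differed more from each other: the SD over subunits of the difference between replicates was larger in RNA-seq in 22 of the 27, with a median of 0.19 in Ribo-seq and 0.29 in RNA-seq. Its part in the result was not tested. No test was run on these counts, since subunits are not replicates.

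Examples were large machines. In the CCT chaperonin, which folds actin and tubulin, the 8 subunits ranged from 336 to 464 CPM per kb in Ribo-seq and from 167 to 367 in RNA-seq. CCT3 had the least mRNA, 180 and 156 CPM per kb, and its footprints, 393 and 320 CPM per kb, were within the range of the other subunits. In eIF3, the initiation factor that binds the small ribosomal subunit, the 5 core subunits spanned 522 to 722 CPM per kb in Ribo-seq and 199 to 615 in RNA-seq. RPG1, its largest subunit, had the least mRNA and the highest efficiency of the 5 (1.40), against 0.23 for TIF34. In RNA polymerase I the range was 1.84-fold in Ribo-seq and 3.67-fold in RNA-seq, and in the COPI vesicle coat 2.04-fold and 3.53-fold.

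Fatty acid synthase, built of equal numbers of both chains, showed the same in its 2 genes. FAS1 averaged 688 CPM per kb in Ribo-seq and 118 in RNA-seq, and FAS2 620 in Ribo-seq and 171 in RNA-seq. The gene with less mRNA had the higher efficiency (2.51 ± 0.28 SE, beside 1.82 ± 0.30 for FAS2), a difference that was not tested. By library, mRNA per kb was 153 and 91.5 in FAS1 and 236 and 124 in FAS2. FAS1 was thus lower in each library, but the values of the genes overlapped. Efficiency also has the mRNA level as its denominator. The 4 complexes that did not follow were Arp2/3, tubulin (only TUB1 and TUB2 listed), the small subunits of ribonucleotide reductase and the Sm ring of the spliceosome. The Sm ring ranged 3.72-fold in Ribo-seq.

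**Figure D5:**
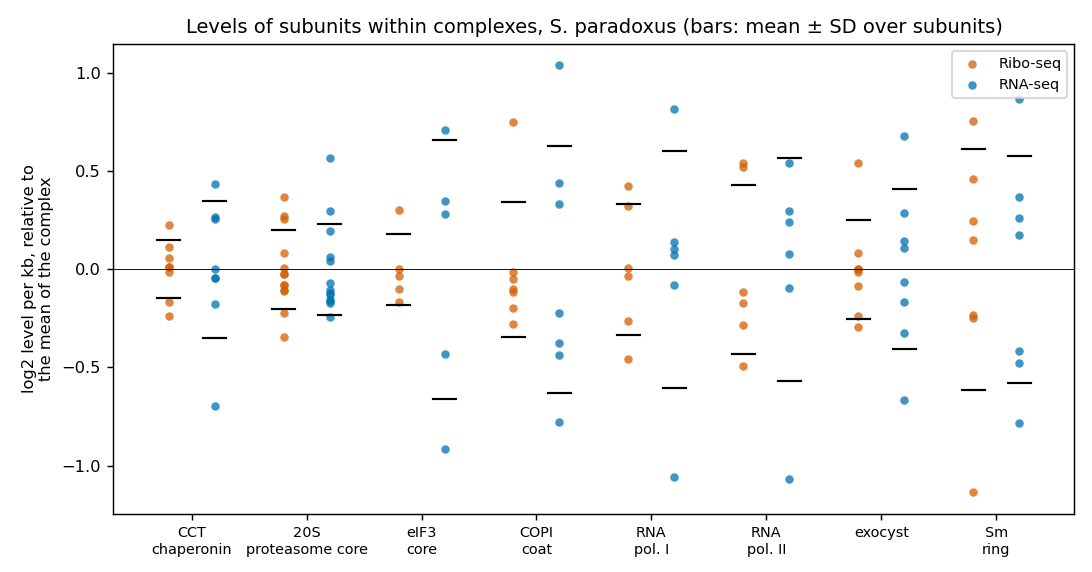
Log2 CPM per kb of each subunit relative to the mean of its complex in 8 of the 27 complexes, Ribo-seq in orange to the left of RNA-seq in blue, each point the mean of 2 libraries and each pair of bars 1 SD either side of the mean. The subunits of the CCT chaperonin and eIF3 lie closer together in Ribo-seq (SD 0.15 and 0.18) than in RNA-seq (SD 0.35 and 0.66), and those of the Sm ring do not.

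The landscape was shared in outline with S. cerevisiae and differed in width. Across 4437 genes with at least 50 counts in each parental column, efficiencies of the species, each fitted from 2 libraries an assay, correlated at r = 0.831, and S. paradoxus correlated with its own allele in the hybrid at 0.880. These points share normalization, and both correlations rest on the same S. paradoxus libraries. Over the same 4437 genes the SD of log2 efficiency was 0.71 in S. paradoxus and 0.92 in S. cerevisiae, and the range between the 5th and 95th percentiles was 4.82-fold in S. paradoxus and 7.42-fold in S. cerevisiae. The difference in width was not tested.

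Tested gene by gene, the difference between the species was called in 572 genes (11.1%) by edgeR, 266 with higher efficiency in S. paradoxus (5.17%) and 306 with lower (5.95%). This count is fragile: with 1 of the 8 libraries left out it ran from 173, without the second S. paradoxus Ribo-seq library, to 1261, without the second S. paradoxus RNA-seq library, and with the hybrid columns in the fit it was 179. Of the 306 lower genes, 80 were among the 423 genes of 3000 bases or more, which is 18.9% of those long genes, and 9 long genes were higher. With 1 library left out, 18 to 153 long genes were lower, without the second S. paradoxus Ribo-seq library and without the second S. paradoxus RNA-seq library.

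Several of the genes of highest efficiency in S. paradoxus had lower efficiency there than in S. cerevisiae. Efficiencies are relative, and their range over all genes was narrower in S. paradoxus. Whether the genes and lists below differ beyond that was not tested. DHH1 had a log2 efficiency of 2.47 in S. paradoxus and 4.18 in S. cerevisiae (difference -1.71 ± 0.20, adjusted p = 4.77e-04, edgeR), SRO9 2.29 and 4.12 (difference -1.83, adjusted p = 0.00513), and PUF3 2.51 and 4.13 (difference -1.63, adjusted p = 0.00487). Of 33 chaperones 10 were lower in S. paradoxus (30.3%, beside 5.95% of all genes) and 1 higher, of 20 tRNA synthetases 6 lower (30.0%), and of 22 glycolysis genes 5 lower (22.7%) and 1 higher. These counts moved with the libraries: 3 to 15 chaperones and 1 to 9 synthetases were lower with 1 left out. Both were lowest without the second S. paradoxus Ribo-seq library, the first S. cerevisiae Ribo-seq library or either S. cerevisiae RNA-seq library. For glycolysis they ran from 3, without either S. cerevisiae RNA-seq library, to 8, and all 3 groups were highest without the second S. paradoxus RNA-seq library. Median differences were negative in other lists above the median gene, such as elongation and termination factors (-0.39) and the vacuolar ATPase (-0.56). They were positive in oxidative phosphorylation (0.04) and mitochondrial ribosomal proteins (0.16). Among lists below the median gene, autophagy was positive (0.36) and meiosis negative (-0.22). HSC82, an Hsp90, stood at 1.22 in S. paradoxus and 2.99 in S. cerevisiae. GLK1, glucokinase, went the other way, at 1.48 in S. paradoxus and -0.34 in S. cerevisiae (adjusted p = 0.0228, edgeR), a call lost with any of 5 libraries left out (adjusted p up to 0.0971) and with the hybrid columns in the fit (0.229).

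GCN4 and CPA1 had higher efficiency in S. paradoxus than in S. cerevisiae. For GCN4 the log2 efficiency was -3.30 in S. paradoxus and -4.96 in S. cerevisiae (difference 1.67 ± 0.23, adjusted p = 0.00149, edgeR). CPA1 stood at -0.10 in S. paradoxus and -1.58 in S. cerevisiae (difference 1.48 ± 0.21, adjusted p = 0.00156, edgeR), and with the hybrid columns in the fit its adjusted p was 0.0535. CIT2 differed in the other direction, at -2.53 in S. paradoxus and -1.19 in S. cerevisiae (difference -1.34, adjusted p = 0.0105, edgeR). Without the first S. cerevisiae Ribo-seq library it was -1.11 (adjusted p = 0.0630), and without the second S. cerevisiae RNA-seq library -1.33 (0.0552). HAC1 did not pass the test (difference -0.68, adjusted p = 0.306, edgeR), with -5.29 in S. paradoxus and -4.61 in S. cerevisiae, but did so without the second S. paradoxus RNA-seq library (difference -1.13, adjusted p = 0.00309).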

How the data were processed

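RNA-seq and Ribo-seq were measured in 2 libraries each of S. paradoxus, S. cerevisiae and their hybrid. The deposited table holds whole-number counts per gene, and the deposited coordinate tables give coding lengths. Per the submitters' processing notes, the tools named are bedtools 2.17.0, Bowtie 0.12.8, cutadapt 1.2.1 and CASAVA 1.8, and the build is sacCer3; the sources used here name no S. paradoxus assembly. Per the labels' protocols, libraries were sense strand-specific. What "Mix" in the parental column names means is not given.

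The 8 parental columns were fitted together in edgeR 4.0.16 (R 4.3.3): TMM, filterByExpr with a minimum count of 10, quasi-likelihood, 1 mean per group, Benjamini-Hochberg at 0.05 over 5145 genes. Efficiency was S. paradoxus Ribo-seq minus RNA-seq, and the species difference was the interaction. Hybrid columns stayed out because both alleles come from 1 library. DESeq2 1.42.0 was an alternative. The scripts were tested on simulated data. Lists and length classes are described without tests. The genes named are the 12 highest and 12 lowest efficiencies among called genes with at least 50 counts in each S. paradoxus RNA-seq library and no overlap, the 6 largest species differences each way, each list's extremes and most footprints per kb, and all genes of known translational control. Members and lists were chosen with earlier results of these data known. Intervals and floors cover counting error only. Totals of 6116133 to 8910405 counts per parental column set the precision. The values of 1 gene of the translational control list are not reported here.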

Additional observations from a re-analysis of the deposited data

Results flagged for a closer look

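12 genes had efficiencies that differed between the species by the test of the difference itself (edgeR, adjusted p from 3.52e-08 to 0.00428), and they are the 6 largest each way among called genes with at least 50 counts in each parental RNA-seq library. 6 had higher efficiency in S. paradoxus, with mRNA and almost no footprints in S. cerevisiae. YJL213W had 849 and 767 Ribo-seq and 907 and 902 RNA-seq counts in S. paradoxus, and 3 and 1 Ribo-seq and 1372 and 1352 RNA-seq counts in S. cerevisiae (log2 difference 8.99). YLR046C differed by 5.67, with 1207 and 1008 Ribo-seq counts in S. paradoxus and 5 and 3 in S. cerevisiae. For both, coding lengths in the coordinate tables differ, 1326 bases in S. paradoxus and 996 in S. cerevisiae for YJL213W, and 921 and 813 for YLR046C. The others were FAT3 (5.55), PRM10 (5.46), the DNA polymerase gene POL4 (5.42) and DCI1 (5.28), with no more than 6 Ribo-seq counts in either S. cerevisiae library. Fitted differences that rest on such counts depend on the fit's prior count.

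6 genes were lower in S. paradoxus. DUR3 differed by -5.08, with 1 and 3 Ribo-seq and 489 and 718 RNA-seq counts in S. paradoxus and 45 and 34 Ribo-seq and 347 and 418 RNA-seq counts in S. cerevisiae. MLO1 (-4.57), GIT1 (-3.95) and YOL159C-A (-3.86) likewise had few footprints in S. paradoxus. KNS1, a protein kinase, had 63 and 77 Ribo-seq and 691 and 515 RNA-seq counts in S. paradoxus and 315 and 214 Ribo-seq and 189 and 202 RNA-seq counts in S. cerevisiae (-3.73). HSP26, a small heat shock protein, had 15 and 7 Ribo-seq and 110 and 118 RNA-seq counts in S. paradoxus and 122 and 132 Ribo-seq and 148 and 241 RNA-seq counts in S. cerevisiae (-3.01). All 12 calls held with any 1 of the 8 libraries left out, with adjusted p up to 0.0466 for HSP26.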

How the results depend on the processing

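With 1 of 8 libraries left out, S. paradoxus efficiency calls ran from 2032 to 3075, beside 2846; species-difference calls ran from 173 to 1261, beside 572 (76 to 595 higher, 89 to 666 lower). The labels do not say that replicate numbers pair libraries. Deviations of same-numbered libraries correlated at 0.029 between the S. paradoxus assays, 0.31 between the S. cerevisiae assays and 0.21 between the species in RNA-seq, and at -0.059 to 0.099 in the other 3 pairings. With the replicate block 2980 efficiencies and 787 differences were called. With all 16 columns 2111 efficiencies and 179 differences (75 higher, 104 lower) were called. By DESeq2 the counts were 2741 and 639. A test against a 1.5-fold change left 1098 genes (385 higher, 713 lower), and calls of at least 2-fold were 1004 (313 higher, 691 lower). Total-count scaling gave 426 higher and 2670 lower, and 416 and 164 for the difference; under it RPT6 (-0.41), ATG27 (-0.40), HAP4 (-0.070), CLN3 (-0.41) and SCH9 (-0.099) changed sign, all above that scaling's median gene of -0.50. Among values of single genes under the alternatives, 2302 kept direction and call, 100 lost the call, 41 gained it and 5 changed sign.

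The medians in this paragraph are relative to the median gene. Each list below moved by more than the SD between its replicate pairs. Glycolysis, with a main value of 1.00 and almost no spread between pairs, moved by under 0.1 in most fits: 1.00 with RLE factors and with the replicate block, 1.01 with total counts and with all 16 columns, 1.00 with S. paradoxus columns alone, 0.93 at 50 counts, and 0.90 to 1.02 with libraries left out. With the S. paradoxus columns alone, cell wall was at 0.42, mating at -2.16, meiosis at -2.03 and proteasome at 0.59; with the replicate block proteasome was at 0.61. With at least 50 counts, cell wall was at 0.35, ergosterol 0.48, hexose 0.00046, kinetochore -0.35, meiosis 0.68, mitochondrial ribosome 0.52, proteasome 0.51, initiation 0.33 and translational control -0.51; the mating list had no member left and so no value. With the length trend removed, RNA polymerases were at 0.22, amino acids 0.65, autophagy -0.094, cell wall 0.45, glycolysis 1.18, hexose -0.13, histones -0.089, mitochondrial ribosome 0.52, oxidative phosphorylation 0.85, proteasome 0.66, ribosome biogenesis 0.44 and translational control -0.33. With libraries left out, cell wall ran from 0.32 to 0.48, hexose -0.33 to -0.060, histones 0.17 to 0.42, kinetochore -0.31 to -0.22, meiosis -2.20 to -1.78, mitochondrial ribosome 0.59 to 0.70, oxidative phosphorylation 1.19 to 1.35, proteasome 0.56 to 0.67, initiation 0.31 to 0.54, translational control -0.58 to -0.36 and vacuolar ATPase 0.16 to 0.54. By length, genes from 900 to under 1200 bases gave -0.079 to -0.070 and 3000 or more 0.22 to 0.24 in single pairs, and -0.072 and 0.22 without ribosomal proteins. At 50 counts the mRNA classes 1, 2, 6 and 7, not set against the median gene, gave -0.094, -0.23, -0.060 and 0.12. The cause of these shifts was not tested. Calls of at least 2-fold and the run without ribosomal proteins were chosen after seeing the data. The comparison by sequence feature was not run, since no sequences were at hand. Low counts limit meiosis, mating and the lowest efficiencies.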
